A study of Mus musculus with 2 samples.

Results

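Expression of 10 genes of the Wnt pathway was followed through the cell classes of sorted Nes-GFP+ cells of the adult mouse brain and lung. They were 2 ligands (Wnt2 and Wnt5a), 6 target and feedback genes (Axin2, Lef1, Tcf7, Apcdd1, Nkd1 and Nkd2) and 2 secreted inhibitors (Wif1 and Sfrp1). The members were given as a list of gene names, and all 10 of them had counts in both libraries, out of 25814 genes with counts in either library. Cells were taken from Nestin-GFP mice, which carry GFP under regulatory elements of Nestin, an intermediate filament gene of neural stem cells that is also active in vascular and mesenchymal cells. The mice were about 6 weeks old, and no treatment is named. They were C57BL/6 mice by the labels, whereas the methods speak of transgenic lines bred with CD1 or mixed CD1 and C3H mice. Each tissue was dissociated with trypsin, GFP+ cells were sorted by flow cytometry, and 1 droplet library was made per tissue (1 brain, 1 lung). Each library was 1 biological replicate, and the number of mice in it is not given in the sources used here. Tissue and library therefore cannot be told apart, no test between groups was possible, and every interval given here is a 95% interval that covers counting error alone.

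Canonical Wnt signalling stabilizes beta-catenin, which enters the nucleus and acts with transcription factors of the TCF/LEF family. Among the genes it commonly switches on are its own brakes, such as Axin2, Nkd1 and Apcdd1, so these are widely used as readouts of the pathway. In the brain the pathway is known for building and keeping the blood-brain barrier in endothelial cells, and in the lung Wnt2 and Wnt5a from mesenchymal cells are known for their parts in lung development.

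The filter left 4151 brain cells with a median of 4209 unique molecular identifiers (UMIs) and 5608 lung cells with a median of 5585 UMIs. Each library was clustered alone, without the Wnt genes studied here, and a cluster was called "-like" after a list of marker genes. This gave 11 brain classes and 10 lung classes, and left 407 brain cells (9.80%) in 3 clusters and 935 lung cells (16.7%) in 5 clusters unnamed. The libraries shared 15 barcodes, of which 11 passed the filter in both. The endothelial-like class held 329 brain and 613 lung cells, and each of the 8 endothelial markers had counts in both. The mural-like class of the brain held 169 cells and the pericyte-like class of the lung 1780 cells. Levels are given as CPM (counts-per-million), the UMIs of a gene summed over a class and scaled to a fixed total for all UMIs of that class. In such sums, a change in the share of cells that make a transcript and a change in the amount per cell give the same value.

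**Figure D1:**
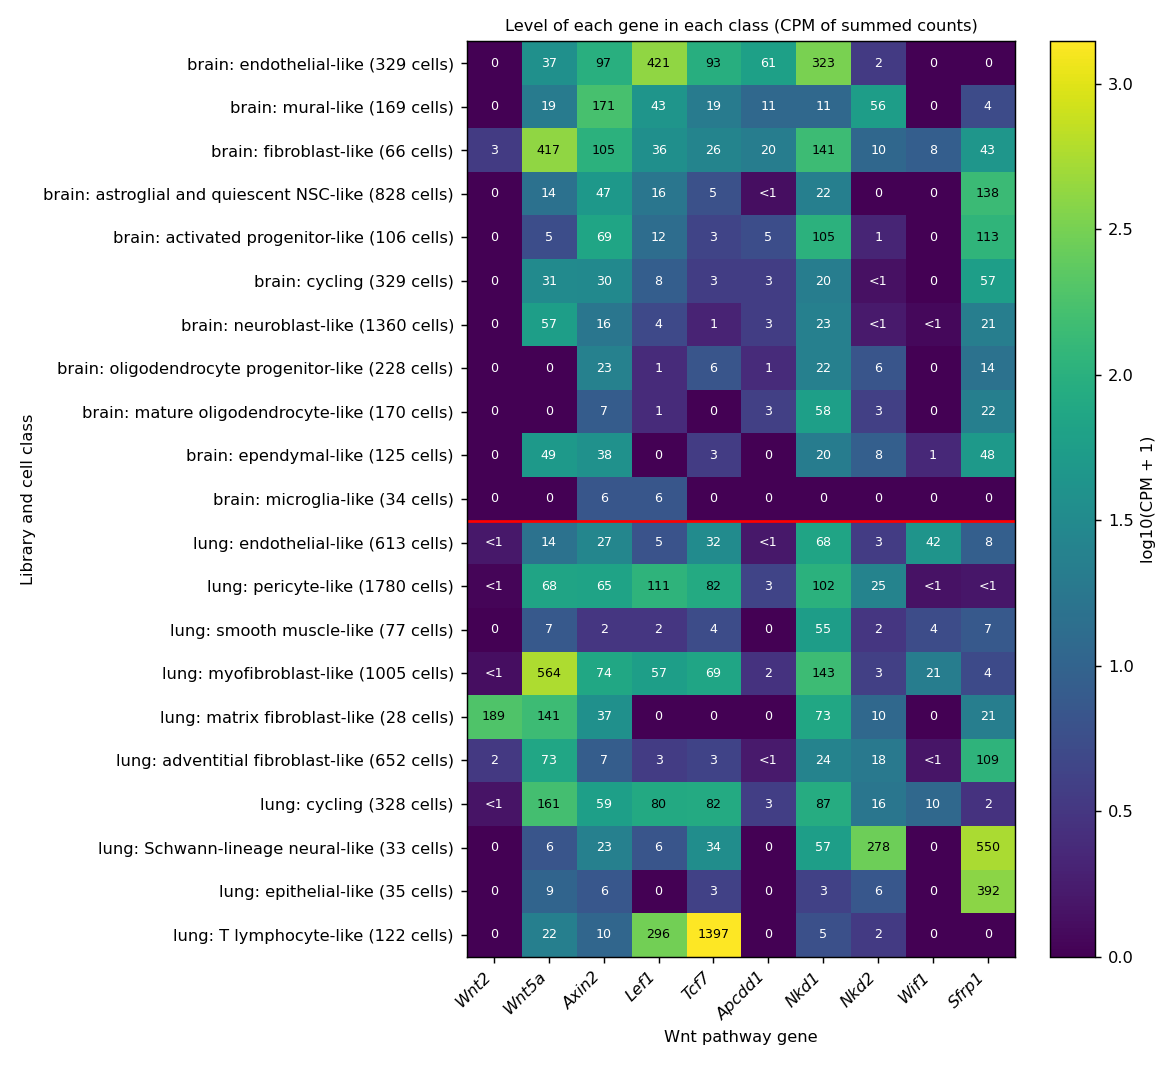
CPM of the 10 genes (columns) in 11 brain and 10 lung classes (rows, with cell numbers), coloured by log10(CPM + 1), with the libraries separated by a red line. Lef1 was highest in brain endothelial-like cells (421 CPM), Tcf7 in lung T lymphocyte-like cells (1397 CPM), Wnt5a in lung myofibroblast-like cells (564 CPM) and Wnt2 in lung matrix fibroblast-like cells (189 CPM).

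The target and feedback genes were compared first between the endothelial-like classes, the question being whether brain and lung endothelium differ in Wnt readouts. Of these, Axin2, Lef1, Tcf7, Apcdd1 and Nkd1, were higher in brain, by 2.92-fold to 107-fold, and Nkd2 was near its limit of detection in both. Wif1 and Sfrp1 had no UMI in the brain class and were detected in lung.

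Lef1, a transcription factor of the TCF/LEF family, had 531 UMIs in brain endothelial-like cells (421 CPM, interval 386 to 458) and 19 UMIs in those of lung (5.44 CPM). The lung level was 77.4-fold lower (interval 49.1 to 130). Tcf7, a second factor of that family, stood at 92.8 CPM in brain (117 UMIs) and 31.8 CPM in lung (111 UMIs), a 2.92-fold difference (interval 2.23 to 3.82). The brain level was higher for both factors. Brain endothelial-like cells held 76.5% of the Lef1 UMIs of all kept brain cells.

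Nkd1 encodes an inhibitor that binds Dishevelled and is itself induced by the pathway. It had 407 UMIs in brain endothelial-like cells (323 CPM, interval 292 to 356) and 238 UMIs in those of lung (68.2 CPM), 4.74-fold lower in lung (interval 4.03 to 5.58). Apcdd1, a membrane inhibitor that binds Wnt ligands and LRP co-receptors, had 77 UMIs in brain (61.1 CPM) and 2 UMIs in lung (0.573 CPM), a ratio of 107 (interval 28.5 to 896). Axin2, a scaffold of the complex that degrades beta-catenin, was 96.7 CPM in brain (122 UMIs) and 26.9 CPM in lung (94 UMIs), 3.59-fold lower in lung (interval 2.72 to 4.75). None of these intervals for brain and lung overlapped. Nkd2, a relative of Nkd1, had 3 UMIs in brain and 9 in lung, and its ratio of 1.08 (interval 0.270 to 6.22) leaves a wide range.

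The secreted inhibitors Wif1 and Sfrp1 had the opposite direction. Wif1, a secreted protein that binds Wnt ligands, had 145 UMIs in lung endothelial-like cells (41.5 CPM) and 0 in brain, which makes it at least 17.5-fold higher in lung when 0 is set to 3 UMIs over the class. Sfrp1, a secreted protein with a Frizzled-like domain, had 28 UMIs in lung (8.02 CPM) and 0 in brain, 3.37-fold higher by the same rule (interval from 2.56). These 28 lay in 12 of the 613 lung cells (1.96%, and 0.987% when thinned to 1000 UMIs), next to 0.281% of pericyte-like cells (0.0562% when thinned), with median depths of 5391 and 5256.5 UMIs. Sfrp1 reached 550 CPM in Schwann-lineage neural-like and 392 CPM in epithelial-like cells of the same library. The latter had no UMI of the epithelial markers Sftpc and Sftpb. The part of RNA from these classes in the endothelial-like counts was not tested. Of the ligands, Wnt5a was 37.3 CPM in brain (47 UMIs) and 14.3 CPM in lung (50 UMIs), 2.60-fold lower in lung (interval 1.71 to 3.96), and Wnt2 had 0 and 2 UMIs. Wnt5a came within the 2-fold limit when each cell was given equal weight (ratio of lung to brain 0.509 in place of 0.384) and went to 0.161 when called doublets were removed.

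In counts, 9 of the 10 members had at least 10 UMIs over both endothelial-like classes, the minimum for a comparison. Of these, 6 were at least 2-fold lower in lung, while 13.3% of all genes compared were, and 2 were at least 2-fold higher, while 14.2% of all genes were. The median lung to brain ratio was 0.343 over the 9 members and 1.0003 over all 11984 genes compared.

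RNA of neighbouring cells was looked for with marker lists. The 9 pericyte markers summed to 701 CPM in lung endothelial-like cells and 17050 CPM in pericyte-like cells, while Lef1 was 5.44 and 111 CPM in the same classes. The 8 mural markers summed to 730 CPM in brain endothelial-like cells and 38099 CPM in mural-like cells, with each of the 8 detected in both. The part of pericyte or mural RNA in the endothelial-like counts was not tested.

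The share of cells with a UMI followed the same order after every cell was thinned to 1000 UMIs. Lef1 was found in 39.0% of 318 brain endothelial-like cells (interval 33.6 to 44.6%) and in 0.658% of 608 in lung (interval 0.180 to 1.68%). At full depth the shares were 69.0% and 2.61%, with median depths of 3798 and 5391 UMIs. Mature oligodendrocyte-like cells, not known for Lef1, had it in 0 of 151 thinned cells (a count of 0 allows up to 1.99%) and in 0.588% at full depth (median 2112 UMIs). Microglia-like cells had it in 0 of 34 thinned cells (allowing up to 8.82%) and in 2.94% (1 cell) at full depth (median 4288.5 UMIs). These 0 counts allow more than the lung endothelial-like share. Both classes are of the brain library, so they give no background for lung. In lung, adventitial fibroblast-like cells had Lef1 in 0.307% when thinned (interval 0.0372 to 1.10%) and in 1.99% at full depth (median 9359 UMIs). Whether the lung endothelial-like share of Lef1 lies above a background was not tested. Nkd1 was found in 24.2% of thinned brain endothelial-like cells (interval 19.6 to 29.3%), 5.76% of those in lung, 2.65% of mature oligodendrocyte-like and 0 of 34 microglia-like cells. Its full-depth shares in the same order were 56.5%, 23.7%, 15.3% and 0 of 34. The thinning left out 11 brain and 5 lung endothelial-like cells, 19 mature oligodendrocyte-like cells and no microglia-like cell. At full depth 227 of the 329 brain endothelial-like cells had a Lef1 UMI, 186 had an Nkd1 UMI and 144 had both.

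**Figure D2:**
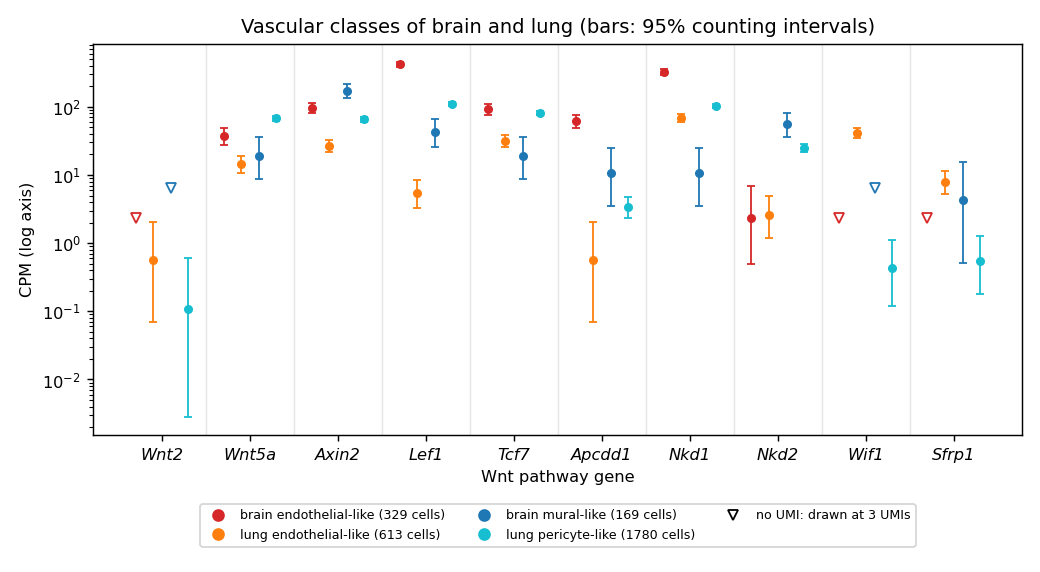
CPM on a log axis of the 10 genes in the endothelial-like and mural or pericyte-like classes of each library, as points with exact Poisson 95% intervals, and open triangles at the level of 3 UMIs where none was found. Brain endothelial-like cells (red) had the highest Lef1, Nkd1 and Apcdd1 of these 4 classes, and brain mural-like cells (blue) the highest Axin2 and Nkd2.

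The other Wnt genes were taken from lists by role. Of 11 further feedback and target genes, 9 could be compared, of which 5 were at least 2-fold lower in lung (13.3% of all genes) and 2 higher (14.2% of all genes). Notum, a secreted enzyme that inactivates Wnt ligands, had 117 UMIs in brain endothelial-like cells (92.8 CPM) and 0 in those of lung. With 0 set to 3 UMIs, it was 108-fold lower in lung (interval from 86.5). Tnfrsf19, a receptor of the TNF family, was 215 CPM in brain and 7.45 CPM in lung. Cd44, a hyaluronan receptor listed as a target, went the other way, with 533 UMIs in lung (153 CPM) and 0 in brain. By the same rule it was 64.2-fold higher in lung (interval from 52.0). Of 16 receptors compared, 2 were at least 2-fold higher in lung and 1 lower, beside 14.2% and 13.3% of all genes. Fzd4, a receptor for norrin and Wnt ligands, was 2.68-fold higher in lung (80.8 against 30.1 CPM, interval 1.91 to 3.87), and Fzd6 was 2.45-fold lower in lung (84.2 against 206 CPM).

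Of 17 transducers compared, 1 was at least 2-fold higher in lung and 1 lower, against the same shares of all genes. Ctnnb1, which encodes beta-catenin, was 374 CPM in brain and 176 CPM in lung, and Tcf7l1, a TCF/LEF factor that often represses targets, was 18.2 CPM in brain and 39.8 CPM in lung. Of 17 ligands and their secretion factors 5 had enough UMIs, with 1 at least 2-fold higher in lung (14.2% of all genes) and 2 lower (13.3% of all genes), each on few UMIs. Of 20 inhibitors 9 could be compared, with 4 at least 2-fold higher in lung (14.2% of all genes) and 1 lower (13.3% of all genes). Dkk2, a secreted ligand of LRP co-receptors, had 265 UMIs in lung endothelial-like cells (75.9 CPM) and 2 in brain, a ratio of 47.8 (interval 13.1 to 397).

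The lung endothelial-like class was made of 3 clusters, which differed from each other. A cluster of 143 cells led by Scn7a, Clec1a and Cd36 had Nkd1 at 159 CPM and Wif1 at 94.8 CPM. A cluster of 392 cells led by Vwf and Lyve1 had them at 37.4 and 25.1 CPM, which makes the first cluster 4.24-fold higher for Nkd1 (interval 3.22 to 5.64) and 3.78-fold higher for Wif1 (interval 2.67 to 5.40). A cluster of 78 cells led by Fabp4 and Rbp7 had 5 Nkd1 UMIs (12.2 CPM) and no Wif1 UMI. Axin2 was in another order, with 35.0 CPM in the Vwf cluster, 17.5 CPM in the Scn7a cluster and 7.33 CPM in the Fabp4 cluster. Lef1 was between 1.03 and 14.7 CPM in the 3 clusters, below the 421 CPM of the brain class in each.

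The start regions of 3 of these targets are shown, since Lef1, Nkd1 and Axin2 were higher together in brain endothelial-like cells. RefSeq windows of 300 bases (250 before and 50 after a start, build GRCm38.p6) were at hand for 7 of the 10 members, in 11 windows. They were searched on both strands for a TCF/LEF core, spelled CTTTG and then AA, AT, TA or TT. It was held by 1 of the 11 windows, at a downstream start of Lef1, and 16.9% of all 32851 promoter windows held it. Capitals mark the match, which lies on the reverse strand of the window. A window without capitals says no more than that these letters are not in it. The windows are Axin2 at chr11:108920099-108920398, plus strand, Nkd1 at chr8:88527383-88527682, plus strand, and Lef1 at chr3:131110047-131110346 and chr3:131156044-131156343, both plus strand, each written 5′ to 3′.
Axin2: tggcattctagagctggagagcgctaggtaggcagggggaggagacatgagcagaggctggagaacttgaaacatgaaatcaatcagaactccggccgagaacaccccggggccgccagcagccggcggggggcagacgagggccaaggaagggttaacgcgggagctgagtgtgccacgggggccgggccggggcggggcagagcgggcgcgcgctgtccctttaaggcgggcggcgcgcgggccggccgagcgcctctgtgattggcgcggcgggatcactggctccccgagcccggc
Nkd1: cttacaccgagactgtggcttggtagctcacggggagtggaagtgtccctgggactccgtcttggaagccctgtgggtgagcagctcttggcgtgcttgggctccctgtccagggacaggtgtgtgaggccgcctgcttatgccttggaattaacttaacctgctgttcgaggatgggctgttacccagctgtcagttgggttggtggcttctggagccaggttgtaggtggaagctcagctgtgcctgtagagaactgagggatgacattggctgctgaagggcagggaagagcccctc
Lef1, first listed start: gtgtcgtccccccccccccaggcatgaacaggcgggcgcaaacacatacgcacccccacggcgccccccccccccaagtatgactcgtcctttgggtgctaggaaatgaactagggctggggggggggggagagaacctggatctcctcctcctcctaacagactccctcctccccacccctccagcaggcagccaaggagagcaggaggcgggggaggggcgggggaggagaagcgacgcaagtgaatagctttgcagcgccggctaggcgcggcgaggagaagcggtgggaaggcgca
Lef1, downstream start: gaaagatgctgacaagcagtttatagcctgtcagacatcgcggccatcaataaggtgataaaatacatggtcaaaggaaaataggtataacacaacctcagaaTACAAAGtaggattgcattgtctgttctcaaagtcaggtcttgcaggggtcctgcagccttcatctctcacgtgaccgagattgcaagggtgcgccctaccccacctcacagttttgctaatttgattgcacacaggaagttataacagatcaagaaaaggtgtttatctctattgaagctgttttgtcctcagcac

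Mural cells were compared next, brain mural-like against lung pericyte-like cells, which were named with partly different marker lists. A lung cluster of 112 cells scored best as pericyte but stayed unnamed, and so did clusters of 248 and 199 cells. Rgs5 and Kcnj8, markers on the brain list, were among the leading genes of the 112 cells. None of these unnamed cells is in the comparison. Here the target genes split. Axin2, Nkd2 and Apcdd1 were higher in brain, while Lef1, Tcf7, Nkd1 and the ligand Wnt5a were higher in lung.

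Axin2 had 80 UMIs in brain mural-like cells (171 CPM, interval 136 to 213), the highest Axin2 level of the 21 classes, and 596 UMIs in lung pericyte-like cells (65.3 CPM), which makes brain 2.62-fold higher (interval 2.05 to 3.32). Nkd2 was 55.6 CPM in brain (26 UMIs) and 24.9 CPM in lung (227 UMIs), 2.24-fold higher in brain (interval 1.43 to 3.37). Apcdd1 rested on 5 brain UMIs, and its ratio of 3.15 had an interval of 0.957 to 8.17, which includes 1. Nkd1 had 5 UMIs in brain (10.7 CPM) and 929 in lung (102 CPM), 9.51-fold lower in brain (interval 4.06 to 29.4). The paralogs Nkd1 and Nkd2 thus lay in opposite directions between these classes.

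Lef1 was 42.8 CPM in brain mural-like cells (20 UMIs) and 111 CPM in lung pericyte-like cells (1014 UMIs), 2.60-fold lower in brain (interval 1.67 to 4.27). Tcf7 was 19.3 CPM in brain (9 UMIs) and 82.0 CPM in lung (749 UMIs), 4.26-fold lower (interval 2.23 to 9.35). Wnt5a was 19.3 CPM in brain (9 UMIs) and 68.1 CPM in lung (622 UMIs), 3.54-fold lower (interval 1.85 to 7.77). Wnt2, Wif1 and Sfrp1 had at most 5 UMIs in either class. Of the 7 members compared, 3 were at least 2-fold higher in brain, while 19.9% of all 12609 genes were, and 4 at least 2-fold lower, while 11.7% of all genes were. The 8 T lymphocyte markers, looked at because such cells are rich in Lef1 and Tcf7, summed to 2.19 CPM in lung pericyte-like cells, with Cd3e and Ptprc at 0. In brain mural-like cells the 8 astroglial markers, all detected, summed to 8864 CPM, next to 299 CPM in brain endothelial-like and 23125 CPM in astroglial and quiescent NSC-like cells (NSC, neural stem cell). Axin2 was 47.0 CPM, Lef1 16.3 CPM, Nkd1 21.9 CPM and Nkd2 0 in that last class, and the part of its RNA in the mural-like levels was not tested.

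Among the other Wnt genes, receptors lay in both directions. Fzd1, a Frizzled receptor, had 2329 UMIs in lung pericyte-like cells (255 CPM) and 1 UMI in brain mural-like cells, and Fzd6 had 3 UMIs in lung and 87 in brain (186 CPM). Reck, a co-receptor for Wnt7 ligands, was 173 CPM in lung and 21.4 CPM in brain. Of the ligands, Wnt4 had 632 UMIs in lung (69.2 CPM) and 1 in brain, and Wnt11 had 380 in lung and 0 in brain. Dkk3, a secreted relative of the Dickkopf inhibitors, was 229 CPM in lung and 6.42 CPM in brain. Of the lists, 6 of 17 ligands, 17 of 26 receptors, 16 of 17 transducers, 7 of 11 targets and 8 of 20 inhibitors could be compared, with 2, 4, 1, 1 and 3 at least 2-fold higher in brain (19.9% of all genes) and 2, 3, 3, 1 and 2 lower (11.7% of all genes).

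The endothelial-like class was then set against the mural or pericyte-like class within each library, so that both levels come from 1 library. This comparison was added after the values had been seen. In the brain, Lef1 had a ratio of endothelial-like to mural-like CPM of 9.84 (interval 6.31 to 16.2). In the lung, its ratio of endothelial-like to pericyte-like CPM was 0.0490 (interval 0.0294 to 0.0769). Nkd1 was 30.2-fold higher in brain endothelial-like cells (interval 12.8 to 93.4) and had a lung ratio of 0.670 (interval 0.579 to 0.773). The lung direction for Nkd1 depended on the cluster, since the Scn7a cluster of the endothelial-like class, at 159 CPM, lay above the 102 CPM of pericyte-like cells, and the other two, at 37.4 and 12.2 CPM, below. Tcf7 had ratios of 4.82 in brain and 0.387 in lung, and Apcdd1 of 5.71 and 0.169, the latter on 2 and 31 lung UMIs. These 4 of the 7 members compared in both libraries had intervals on opposite sides of 1, while 5.45% of all 10135 genes compared did.

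Axin2 and Nkd2 had the same direction in both libraries. Axin2 was lower in endothelial-like cells, with ratios of 0.565 in brain (interval 0.423 to 0.759) and 0.412 in lung, and so was Nkd2, with ratios of 0.0428 and 0.104. Wnt5a had a brain ratio of 1.94 whose interval (0.938 to 4.49) includes 1, and a lung ratio of 0.210.

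**Figure D3:**
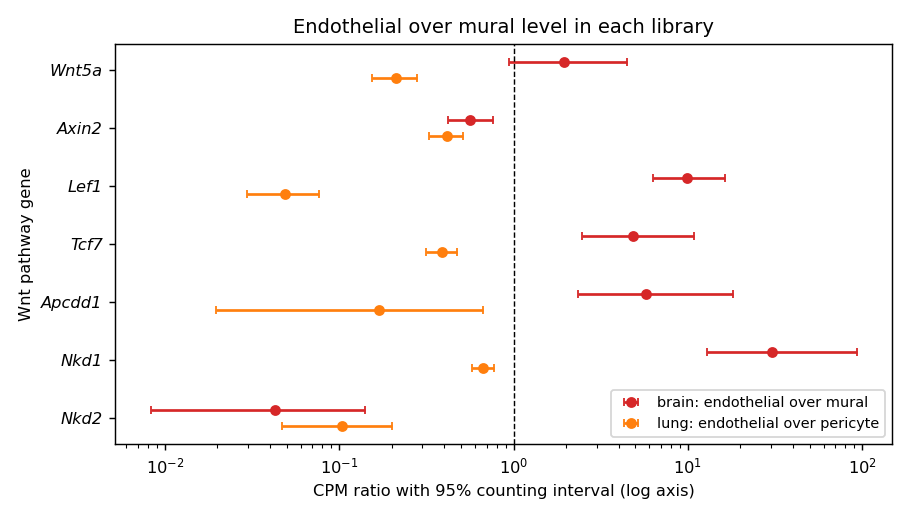
Ratio of endothelial-like to mural-like (brain) or pericyte-like (lung) CPM on a log axis, with exact conditional 95% intervals, for the 7 genes with at least 10 UMIs in both comparisons. Lef1, Tcf7, Apcdd1 and Nkd1 lie right of 1 in brain and left of 1 in lung, while Axin2 and Nkd2 lie left of 1 in both.

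The ligands were followed in the mesenchymal classes of the lung, where the question was which class holds the Wnt ligands and which the readouts. The marker lists separated a matrix fibroblast-like cluster of 28 cells from an adventitial fibroblast-like class of 652 cells, so comparisons with the latter were added. Wnt2 was concentrated in the 28 matrix fibroblast-like cells, Wnt5a in the myofibroblast-like cells and Sfrp1 in the adventitial fibroblast-like cells, while Lef1 and Tcf7 were found in pericyte-like and myofibroblast-like cells.

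Wnt2, a ligand that acts through beta-catenin in the developing lung, had 36 UMIs in matrix fibroblast-like cells (189 CPM, interval 132 to 261). These 36 were 62.1% of the 58 Wnt2 UMIs of the lung library, and 14 more lay in adventitial fibroblast-like cells (2.34 CPM). Myofibroblast-like cells had 2 UMIs, a ratio of 639 (interval 165 to 5482), and pericyte-like cells had 1. The cells with Wnt2 were 14 of the 28 at full depth, and 21.4% (interval 8.30 to 41.0%) when thinned, against 0 of 1005 thinned myofibroblast-like cells (allowing up to 0.299%) and 0.199% of them at full depth (medians 6964.5 and 6610 UMIs). In brain 1 UMI was found, in fibroblast-like cells. Nes itself, the gene behind the sort, had no UMI in the 28 matrix fibroblast-like cells, with 537 CPM in pericyte-like and 535 CPM in myofibroblast-like cells.

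Wnt5a, a ligand best known for signalling without beta-catenin, had 3828 UMIs in myofibroblast-like cells (564 CPM, interval 547 to 583), or 69.0% of its UMIs in the lung library. Matrix fibroblast-like cells had 141 CPM (27 UMIs), adventitial fibroblast-like cells 72.6 CPM, pericyte-like cells 68.1 CPM and smooth muscle-like cells 6.55 CPM. Myofibroblast-like cells were 8.29-fold above pericyte-like cells (interval 7.61 to 9.03), 3.99-fold above matrix fibroblast-like cells (interval 2.74 to 6.06) and 7.77-fold above adventitial fibroblast-like cells (interval 7.04 to 8.60). The pericyte-like and adventitial fibroblast-like levels had a ratio with an interval that includes 1 (0.941 to 1.21). A Wnt5a UMI was found in 89.0% of myofibroblast-like cells, and in 39.9% (interval 36.9 to 43.0%) when thinned, against 3.28% and 1.65% of T lymphocyte-like cells (medians 6610 and 1992.5 UMIs).

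Myofibroblast-like cells fell into 2 clusters. In the cluster of 556 cells led by Aspn and Fgf18, in which Scgb3a2 and Scgb1a1, genes of airway secretory cells, were also among the 10 leading genes, Wnt5a was 814 CPM. In the cluster of 449 cells led by Htra1 and Pdgfra it was 289 CPM, 2.82-fold lower (interval 2.62 to 3.04). Lef1 ran the other way, with 21.6 CPM in the first and 96.8 CPM in the second, 4.48-fold higher (interval 3.48 to 5.82). Tcf7 was 47.5 and 92.8 CPM, while Axin2 (71.9 and 76.4 CPM) was close in both. Nkd1 went with Wnt5a, at 162 CPM in the first and 122 CPM in the second (ratio of second to first 0.750, interval 0.658 to 0.854).

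**Figure D4:**
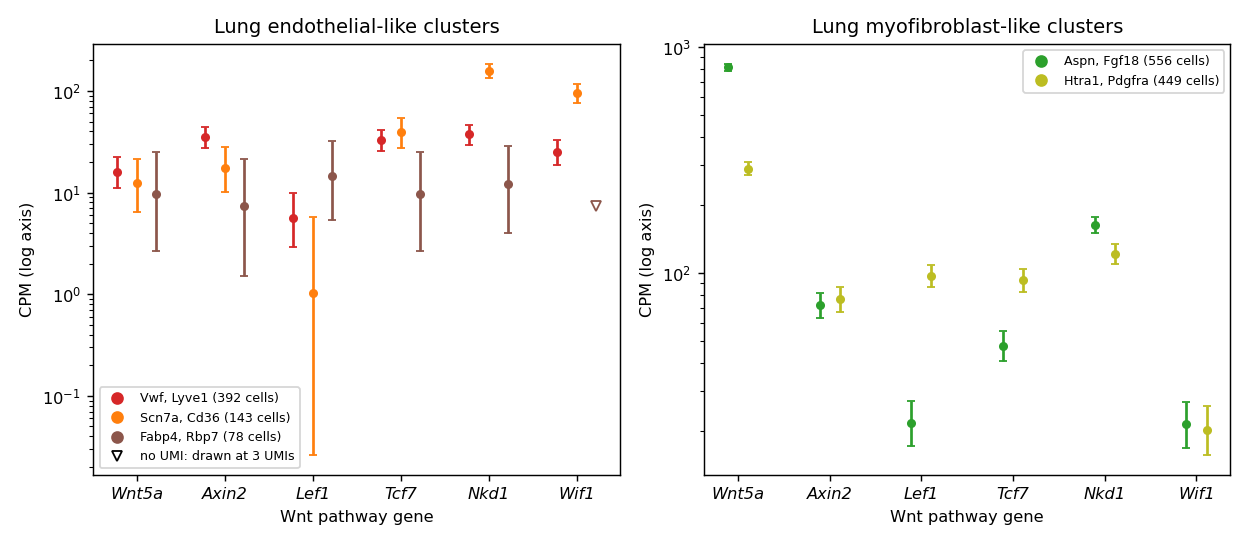
CPM on a log axis, with exact Poisson 95% intervals, of 6 genes in the 3 lung endothelial-like clusters (left) and the 2 lung myofibroblast-like clusters (right), each cluster named by leading genes. Nkd1 and Wif1 were highest in the Scn7a cluster (159 and 94.8 CPM), and Wnt5a and Lef1 ran in opposite directions between the myofibroblast-like clusters.

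Among the targets, Lef1 was 111 CPM in pericyte-like, 57.4 CPM in myofibroblast-like and 2.67 CPM in adventitial fibroblast-like cells, with no UMI in matrix fibroblast-like cells. For a class of this size, 3 UMIs amount to 15.7 CPM, which puts the pericyte-like level 7.07-fold above the matrix fibroblast-like one (interval from 5.74). Tcf7 followed the same order, with 82.0, 69.0 and 3.34 CPM and again no UMI in matrix fibroblast-like cells. Nkd1 was more even, at 143 CPM in myofibroblast-like, 102 CPM in pericyte-like, 73.3 CPM in matrix fibroblast-like, 54.6 CPM in smooth muscle-like and 24.2 CPM in adventitial fibroblast-like cells. Axin2 was 74.0 CPM in myofibroblast-like and 65.3 CPM in pericyte-like cells, 36.7 CPM on 7 UMIs in matrix fibroblast-like cells, 7.35 CPM in adventitial fibroblast-like cells and 2.18 CPM on 1 UMI in smooth muscle-like cells. Apcdd1 was at most 3.40 CPM where it was detected in these classes.

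The inhibitors were unevenly spread. Wif1 had 141 UMIs in myofibroblast-like cells (20.8 CPM) and 4 in pericyte-like cells, a ratio of 47.5 (interval 18.1 to 177). Sfrp1 was 109 CPM in adventitial fibroblast-like cells (653 UMIs), 26.4-fold above myofibroblast-like cells (interval 18.1 to 40.1) and 199-fold above pericyte-like cells (interval 84.9 to 615). Nkd2 was 8.43-fold higher in pericyte-like than in myofibroblast-like cells (24.9 against 2.95 CPM, interval 5.33 to 14.1). Within the adventitial fibroblast-like class, Nkd2 was 98.2 CPM in a cluster of 99 cells led by Ptn and C3, and 5.03 CPM in a cluster of 553 cells led by Serpinf1 and Mfap5. Sfrp1 was 48.5 CPM in the first and 119 CPM in the second.

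**Figure D5:**
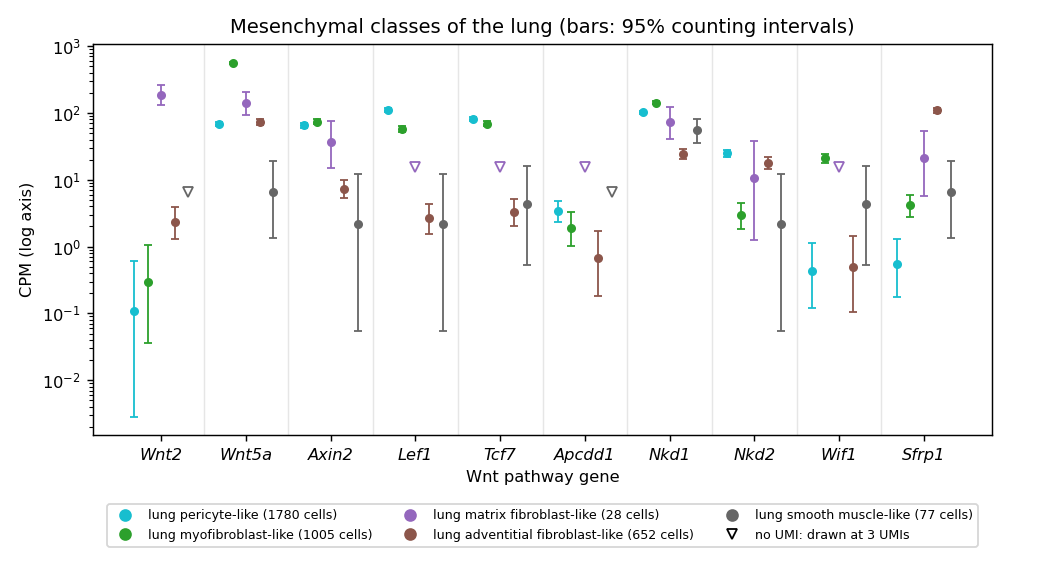
CPM on a log axis of the 10 genes in 5 lung mesenchymal classes, with exact Poisson 95% intervals and open triangles at the level of 3 UMIs where none was found. Wnt2 stood apart in matrix fibroblast-like cells (purple, 189 CPM), Wnt5a in myofibroblast-like cells (green, 564 CPM) and Sfrp1 in adventitial fibroblast-like cells (brown, 109 CPM).

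In counts, myofibroblast-like against pericyte-like cells gave 9 members to compare, of which 3 (Wnt5a, Wif1 and Sfrp1) were at least 2-fold higher, while 15.3% of all genes were, and 1 (Nkd2) at least 2-fold lower, while 11.9% were. The Lef1 ratio was 0.516, within the limit, and was past it under 3 other settings, at 0.476 with equal weight per cell, 0.205 with no upper gene limit and 0.198 with the largest clusters alone. Matrix fibroblast-like against myofibroblast-like cells gave 10, with 3 higher (Wnt2, Sfrp1 and, on 2 UMIs, Nkd2; 13.0% of all genes) and 4 lower (Wnt5a, Axin2, Lef1 and Tcf7; 11.3% of all genes). Against pericyte-like cells, 8 could be compared, with 2 higher (Wnt2 and Wnt5a; 16.1% of all genes) and 3 lower (Lef1, Tcf7 and, on 2 UMIs, Nkd2; 12.8% of all genes). The Wnt5a ratio was 2.08, and 1.10 when the matrix and adventitial fibroblast-like classes were summed. The Nkd2 intervals included 1 in both of these comparisons, and so did that of Axin2 against myofibroblast-like cells.

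Adventitial fibroblast-like against myofibroblast-like cells gave 10 members, with 3 at least 2-fold higher (Wnt2, Nkd2 and Sfrp1; 12.1% of all genes) and 7 at least 2-fold lower (13.7% of all genes). The interval of Apcdd1, 1 of the 7, included 1. Against pericyte-like cells 9 members gave 2 higher (Wnt2 and Sfrp1; 17.5% of all genes) and 5 lower (Axin2, Lef1, Tcf7, Apcdd1 and Nkd1; 17.1% of all genes). The median ratio was 0.149 over the 10 members in the first and 0.238 over the 9 in the second, beside 0.838 and 0.855 over all genes. These comparisons share the myofibroblast-like or pericyte-like class with those before.

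The other Wnt genes add ligands and inhibitors to this picture. Wnt11, a ligand best known for signalling without beta-catenin, was 219 CPM in myofibroblast-like cells (1483 UMIs), 41.6 CPM in pericyte-like cells and 8.01 CPM in adventitial fibroblast-like cells. Wnt9a had 205 UMIs in myofibroblast-like and 7 in pericyte-like cells. Fgf18, a growth factor listed as a target, was 346 CPM in myofibroblast-like cells and 1.10 CPM in pericyte-like cells, and Notum was 17.8 and 0.548 CPM. Of 11 further targets 9 could be compared between these classes, with 6 at least 2-fold higher in myofibroblast-like cells (15.3% of all genes) and 0 lower (11.9% of all genes). Of the other lists, 8 of 17 ligands, 20 of 26 receptors, 17 of 17 transducers and 10 of 20 inhibitors could be compared there, with 3, 8, 1 and 2 higher and 2, 4, 1 and 4 lower, against the same shares of all genes.

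Several inhibitors other than Sfrp1 were higher in adventitial fibroblast-like cells. Of 10 inhibitors compared with myofibroblast-like cells, 6 were at least 2-fold higher (12.1% of all genes) and 1 lower (13.7% of all genes). The higher ones included Shisa3, of a family that retains Frizzled receptors inside the cell (41.7 against 0.147 CPM), and Sfrp4, a relative of Sfrp1 (31.9 against 2.21 CPM). Rspo3, an agonist that spares Frizzled receptors from degradation, had 97 UMIs in adventitial fibroblast-like and 2 in myofibroblast-like cells. Lgr6, a receptor for R-spondins, had 0 and 163 UMIs. Dact3, an inhibitor inside the cell, was 115 CPM in matrix fibroblast-like, 72.5 CPM in myofibroblast-like and 16.8 CPM in pericyte-like cells.

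Outside these classes, Tcf7 was highest in the 122 T lymphocyte-like cells of the lung, with 570 UMIs (1397 CPM, interval 1284 to 1516), next to brain endothelial-like cells (92.8 CPM). Tcf7 and Lef1 are both known as T cell factors, and Lef1 was 296 CPM there, below brain endothelial-like cells only. Axin2 (9.80 CPM) and Nkd1 (4.90 CPM) were low in these cells. Ccl6 and Tyrobp, genes of myeloid cells, were among the 10 leading genes of this cluster.

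Sfrp1 and Nkd2 were highest in the 33 Schwann-lineage neural-like cells of the lung, at 550 CPM (interval 446 to 671) and 278 CPM (interval 206 to 367). The 35 epithelial-like cells, led by Ccl21a, Krt17 and genes of antigen presentation, had Sfrp1 at 392 CPM (interval 326 to 467). This interval overlaps that of the Schwann-lineage neural-like cells. The epithelial-like cells had no UMI of Sftpc, Sftpb, Ager and Scgb1a1, which are on the list of 8 epithelial markers. A lung cluster of 189 cells led by Sftpc and Sftpa1 stayed unnamed, and its Sfrp1 is not in this level. In brain, Sfrp1 was 138 CPM in astroglial and quiescent NSC-like cells. Of its 3 clusters there, the one of 272 cells led by Thbs4 and Gfap had 354 CPM, and the one of 357 cells led by Htra1 and Cxcl14 had 29.1 CPM, a ratio of 12.2 (interval 9.08 to 16.6). Sfrp1 itself was 1 of the 10 leading genes of the Thbs4 cluster.

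The 66 fibroblast-like cells of the brain had the highest Wnt5a of that library, 417 CPM (163 UMIs, interval 355 to 486), and 141 CPM of Nkd1. Neuroblast-like cells had Wnt5a at 56.6 CPM, with 80.7 CPM in one cluster and 35.9 CPM in the other. Activated progenitor-like cells had Nkd1 at 105 CPM, Axin2 at 68.9 CPM and Sfrp1 at 113 CPM, while Lef1 was 12.4 CPM.

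The order of the levels was close for several neighbours. For Axin2, brain mural-like cells (171 CPM) were followed by brain fibroblast-like (105 CPM) and brain endothelial-like cells (96.7 CPM), and each of these intervals overlapped that of its neighbour in the order. For Nkd1, brain endothelial-like cells (323 CPM) stood clear of lung myofibroblast-like cells (143 CPM), which overlapped brain fibroblast-like cells (141 CPM). For Tcf7, brain endothelial-like, lung cycling and lung pericyte-like cells (92.8, 82.4 and 82.0 CPM) overlapped each other. For Wif1, lung endothelial-like cells (41.5 CPM) stood clear of lung myofibroblast-like cells (20.8 CPM).

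Genes with the pattern most like each member were sought by Pearson's r of log2(CPM + 10) over the 21 classes, which share 2 libraries and differ in depth. For Apcdd1 these were Slco1a4 (r = 0.93), an organic anion transporter of the blood-brain barrier, Foxl2 (0.92) and Stra6 (0.90), a receptor for retinol transport. For Lef1 they were Mier1 (0.83), Foxf2 (0.78) and Mfsd7c (0.77), and for Tcf7 Mier1 (0.90), Ltf (0.83) and Dusp5 (0.81). For Axin2 they were Tnfrsf19 (0.86), Eif4g3 (0.80) and C87436 (0.78), and for Nkd1 Erc1 (0.76), Maoa (0.70) and Abcg2 (0.70). For Nkd2 they were Col28a1 (0.86), Ajap1 (0.86) and Kirrel (0.82), for Wif1 Pcsk5 (0.89), Piezo2 (0.84) and Smad6 (0.83), for Wnt5a Tmem132c (0.82), Kcns3 (0.77) and Adamts10 (0.77), and for Sfrp1 Tenm3 (0.85), Tst (0.75) and Epb4.1l4b (0.75). These are the 3 highest of 9719 candidate genes for each member and carry no test. Wnt2 had too few UMIs for this search.

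The genes lie apart in the genome (RefSeq, GRCm38). Wnt5a is at chr14:28504543-28527448, Wnt2 at chr6:17985474-18032772, Lef1 at chr3:131110297-131224357, Nkd1 at chr8:88521342-88594887, Sfrp1 at chr8:23411383-23449632, Wif1 at chr10:121034004-121100642, Nkd2 at chr13:73818534-73847631 and Apcdd1 at chr18:62922327-62953815. Axin2 and Tcf7 are both on chromosome 11, at 108917828 to 108950783 and at 52246527 to 52283383. Exons of Lef1, Wnt5a and Axin2 overlap antisense genes by up to 1208, 233 and 105 bases, and whether the counting used strand is not stated. The antisense genes of Wnt5a and Axin2 had 25 and 2 UMIs in lung, next to 5549 and 1494 UMIs of the genes themselves, and no UMI was listed under that of Lef1.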

How the data were processed

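Nes-GFP+ cells of mouse brain and lung (1 library each) were profiled with a droplet 3′ kit. Per the labels and the study's methods, the authors demultiplexed reads with bcl2fastq 2.19.1.403, extracted barcodes with UMI-tools (1.0.0 in the submitters' processing notes), aligned to mm10 with STAR 2.7.1a and assigned reads with featureCounts 1.6.4. The annotation, strand setting and rule for barcodes are not given in the sources used here. The deposited values are raw UMI counts per gene and barcode, for 4640 brain barcodes (26221173 UMIs) and 5981 lung barcodes (36816962 UMIs), with no normalization by the authors.

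Barcodes with more than 200 and fewer than 4000 genes and under 40% mitochondrial counts were kept, as in the methods. Doublets were kept. Scrublet (scanpy 1.11.5) called 44 brain (1.06%) and 74 lung cells (1.32%), and their removal was an alternative. Each library was clustered with Seurat 5.3.0 in R 4.3.3 on 2000 variable genes less the Wnt and cell cycle genes, with 20 principal components and resolution 0.8. A cluster took a class name from marker lists where its score (mean log2(CPM + 10) of the markers less the mean over clusters) was at least 1 and led the next class by at least 0.5, with 3 or more markers in at least 20% of cells. It stayed unnamed where the 10 leading genes held none of its markers and its median depth, times 3, was below the library median, or where they held more markers of another class. The score limits were set with the data in view.

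Sums of counts over each class were scaled to CPM. Levels carry exact Poisson intervals, ratios exact conditional binomial intervals and shares Clopper-Pearson intervals (scipy 1.17.1), all at 95% and for counting error only. A member was counted as higher or lower at a 2-fold ratio with at least 10 UMIs over both classes, and 0 was set to 3 UMIs over the class. Ratio code was tested on simulated data. The named list genes are up to 4 per list and comparison with the largest ratios and at least 50 UMIs. A gene that this rule would name is not reported here. The members and lists were chosen with earlier results of these data known. Cells, not samples, make up these classes, so no p-value is given.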

Additional observations from a re-analysis of the deposited data

Results flagged for a closer look

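With 1 library per group, sample outliers could not be looked for. The endothelial over mural contrast had opposite directions in the brain and lung libraries for 4 members, and the difference between the libraries was not tested. For Lef1 the CPM ratio of endothelial-like to mural-like cells was 9.84 in brain, and that of endothelial-like to pericyte-like cells was 0.049 in lung. For Nkd1 the ratios were 30.2 and 0.670, for Tcf7 4.82 and 0.387, and for Apcdd1 5.71 and 0.169. The lung Apcdd1 ratio rests on 2 and 31 UMIs and the brain Nkd1 ratio on 407 and 5 UMIs. The lung Nkd1 direction did not hold in each endothelial-like cluster, with 159 CPM in the Scn7a cluster, above the 102 CPM of pericyte-like cells, and 37.4 and 12.2 CPM in the others. Such opposite intervals were found for 5.45% of all genes compared.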

How the results depend on the processing

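Of 48 member ratios past the 2-fold limit over the 7 comparisons, 43 stayed past it in the same direction under each of 9 other settings (filters, doublets, clustering, weights and scaling), and no called ratio reversed. The exceptions in matrix fibroblast-like against myofibroblast-like cells were Axin2 (0.507 to 0.551 under 3 settings), Lef1 and Nkd2. Lef1 was 0.727 with the largest cluster of each class, with 0 set to 3 UMIs, and Nkd2 could not be called under 2 settings. With equal weight per cell, Wnt5a in the endothelial comparison (0.509) and Apcdd1 in adventitial fibroblast-like against myofibroblast-like cells (0.637) were exceptions too. The count of members lower in myofibroblast-like than in pericyte-like cells went from 1 to 2 with no upper gene limit, with equal weight per cell and with the largest clusters alone, where the Lef1 ratio was 0.205, 0.476 and 0.198 in place of 0.516. With the matrix and adventitial fibroblast-like classes summed, an alternative chosen after seeing the data, the members lower than in myofibroblast-like cells went from 4 to 7 and those lower than in pericyte-like cells from 3 to 5. The summed class lost the calls of Wnt5a (2.08 to 1.10) and Nkd2 (0.421 to 0.709) against pericyte-like cells, and its Wnt2 ratio was 27.4 in place of 639 against myofibroblast-like and 73.9 in place of 1722 against pericyte-like cells. In the endothelial comparison the Lef1 ratio went from 0.0129 to 0.0201 with no upper gene limit and to 0.00701 without called doublets, and Nkd2 passed the limit (2.05) with no upper gene limit. Over all settings, the lung to brain ratio there ranged from 0.116 to 0.242 for Nkd1 and from 0.00510 to 0.0233 for Apcdd1. For Wif1 it ranged from 10.5 to 23.5. The Wnt2 ratio of matrix fibroblast-like to myofibroblast-like cells went from 639 to 212 with no upper gene limit and to 224 with the largest clusters. Nkd2 in adventitial fibroblast-like against pericyte-like cells went from 0.719 to 0.202, past the limit, with the largest clusters. Thinning to 1000 UMIs moved the share of cells with a UMI from 69.0 to 39.0% for Lef1 and from 56.5 to 24.2% for Nkd1 (brain endothelial-like), from 89.0 to 39.9% for Wnt5a (lung myofibroblast-like) and from 81.1 to 72.7% for Tcf7 (lung T lymphocyte-like). No paired analysis was possible because each group held 1 library. Depth limits the small classes most: 3 UMIs are 15.7 CPM in matrix fibroblast-like and 0.329 CPM in pericyte-like cells.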
